A study of Homo sapiens with 2 samples.

Results

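In the library of SK-N-BE(2)-C cells in which mutant HRASV12 was induced, 182 of 666 cells (27.3%, exact Clopper-Pearson interval 24.0 to 30.9) carried as much mitotic message as the upper part of the uninduced cells, out of 1622 cells in both libraries. They were chosen by their own transcripts: the CPM (counts scaled by the cell's total) of AURKA, CENPE, NEK2, DLGAP5, HMMR, ASPM, TTK, KIF20A and KIF14 were summed in each cell, and induced cells above the median of the control cells, 251.5 CPM, were kept. These 182 cells are called high induced cells here. They are set beside the other 484 induced cells, and beside the 478 control cells above and the 478 at or below the same threshold, called high control and other control cells. Division itself was not observed, and all that follows concerns the transcripts of cells taken at a single time.

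SK-N-BE(2)-C is a human neuroblastoma cell line, and the derivative used, SK-N-BE(2)-C-pIND-HRASV12, carries an inducible copy of HRASV12, an HRAS protein locked in its active state. Induced cells had received 100 ng/ml doxycycline and control cells had been left untreated, over 13 days in both cases, so doxycycline and the transgene cannot be told apart. From each kind 1 sample went into droplets for 3′ single-cell sequencing (10x Genomics Chromium). With 1 library per condition and no replicates, no difference was tested, and every interval below is a 95% interval for counting error only.

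Cells entering mitosis accumulate a set of messages that is low in the rest of the cycle. It encodes the kinases that start mitosis, the motors and bundling proteins of the spindle, the kinetochore proteins that hold chromosomes to it, and the ubiquitin ligase that ends it. Many of these genes are held down in resting cells by the DREAM complex, which acts through CHR elements near the start site. Neuroblastoma cells can take an adrenergic, neuron-like state or a mesenchymal one, and RAS signalling has been linked to the mesenchymal state.

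The 9 genes of the sum act at different points of mitosis. AURKA and NEK2 are kinases of the centrosome, TTK is the kinase of the spindle checkpoint, and CENPE is the motor that carries chromosomes to the spindle equator. KIF20A and KIF14 are motors of the midzone and of cytokinesis, while DLGAP5, HMMR and ASPM bind spindle microtubules and poles. RefSeq promoters (GRCh38.p14, 250 bases before to 50 after the start) were matched for 7 of the 9 genes, all but AURKA and TTK. They were searched on both strands for TTTGAA, the core of the CHR element, and for CCAAT, a separate promoter element. Neighbouring CCAAT matches can share their end letters. TTTGAA was present in 4 of the 7 promoters (57.1%) and CCAAT in 6 (85.7%), and 4 held both. Among all 35116 promoters of the table, 15.2% held TTTGAA, 34.6% CCAAT and 5.90% both. The 4 promoters with both motifs are shown because their genes define the cells described, with either motif, on either strand, in capitals. They lie at chr1:197146620-197146919 (minus strand, ASPM), chr1:200620702-200621001 (minus strand, KIF14), chr5:163460382-163460681 (plus strand, HMMR) and chr14:55191536-55191835 (minus strand, DLGAP5).
ASPM: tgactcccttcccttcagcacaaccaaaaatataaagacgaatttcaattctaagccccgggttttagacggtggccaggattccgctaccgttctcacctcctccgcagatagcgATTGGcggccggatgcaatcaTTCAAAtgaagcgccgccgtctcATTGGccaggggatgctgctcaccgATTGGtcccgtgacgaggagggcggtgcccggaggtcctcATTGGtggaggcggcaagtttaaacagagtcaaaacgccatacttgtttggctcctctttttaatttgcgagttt
KIF14: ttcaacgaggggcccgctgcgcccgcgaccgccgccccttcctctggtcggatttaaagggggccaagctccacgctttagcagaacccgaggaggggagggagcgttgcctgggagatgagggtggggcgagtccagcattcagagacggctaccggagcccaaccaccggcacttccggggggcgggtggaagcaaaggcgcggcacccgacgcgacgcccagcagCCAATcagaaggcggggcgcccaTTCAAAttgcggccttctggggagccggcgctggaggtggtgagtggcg
HMMR: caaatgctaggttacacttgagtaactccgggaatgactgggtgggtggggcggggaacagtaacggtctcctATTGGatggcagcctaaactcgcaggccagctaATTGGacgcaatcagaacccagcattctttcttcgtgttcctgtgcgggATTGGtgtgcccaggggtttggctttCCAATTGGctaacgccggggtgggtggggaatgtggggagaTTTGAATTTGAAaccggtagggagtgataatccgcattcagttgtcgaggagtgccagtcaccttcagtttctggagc
DLGAP5: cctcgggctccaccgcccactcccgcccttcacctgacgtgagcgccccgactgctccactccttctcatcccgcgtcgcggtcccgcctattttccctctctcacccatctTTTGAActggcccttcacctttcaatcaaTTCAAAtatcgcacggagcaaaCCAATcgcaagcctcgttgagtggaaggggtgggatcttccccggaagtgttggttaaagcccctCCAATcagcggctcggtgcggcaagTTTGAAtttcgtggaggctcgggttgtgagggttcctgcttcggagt
The same search over 68 other mitotic genes, with 85 promoters, found TTTGAA in 47 (55.3%), CCAAT in 60 (70.6%) and both in 37 (43.5%). Among 57 promoters of 27 mesenchymal surface and cytoskeleton genes, described further on, TTTGAA was in 4 (7.02%), CCAAT in 12 (21.1%) and both in 1 (1.75%). A match describes these letters and was not tested as a site of binding.

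Depth differed between the groups. They summed to between 22343249 counts in high induced and 58016487 in other induced cells, with group medians from 75605 to 121440 counts per cell and from 9137 to 10351 genes. The median mitochondrial share was 10.2% in high induced, 11.3% in other induced, 12.4% in high control and 14.2% in other control cells. Cells below the control 5th percentile of mitochondrial share or of the nuclear RNA MALAT1 made up 71 of 182 high induced cells (39.0%) and 189 of 484 other induced cells (39.0%), against 48 (10.0%) and 37 (7.74%) of the 478 in each control group. The authors' annotation marks all 1622 cells as singlets, and no barcode was shared between the libraries. Lists of immune (9 genes) and erythroid markers (6 genes) had no member at 10 CPM in any group. The endothelial list (17 genes) summed to 93.5 CPM in high induced, 154 in other induced, 113 in high control and 165 in other control cells. In the same order 2, 5, 2 and 2 of its genes reached 10 CPM. VWF and CDH5, 2 genes of the list picked after their values were seen, were at 0.0448 and 0.269 CPM in high induced cells. Cells above the control 99th percentile of this list without EGFL7 made up 6 of 182 high induced (3.30%) and 35 of 484 other induced cells (7.23%), against 1 and 9 of 478 high and other control cells.

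HRAS, the induced gene, is counted at its 3′ end, which does not separate the transgene from the native gene. Its level was 156 CPM in high induced, 162 in other induced, 116 in high control and 102 in other control cells. High induced cells thus had 1.35-fold (interval 1.29 to 1.41) the HRAS of high control cells, and 0.962-fold (0.925 to 1.00) that of the other induced cells. After every cell had been thinned to 49000 counts, 36 of 157 high induced cells had 10 or more HRAS counts (22.9%, interval 16.6 to 30.3), as had 28.5% of other induced, 9.20% of high control and 4.66% of other control cells. The median was 6, 7, 5 and 5 counts. In summed CPM high induced cells were nearer to the other induced than to the high control cells, while their median lay 1 count from each. The summed level covers high induced cells that differ among themselves in HRAS, as given further on. The related gene NRAS stood at 64.4, 52.9, 47.1 and 44.5 CPM in the same order of groups.

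**Figure D1:**
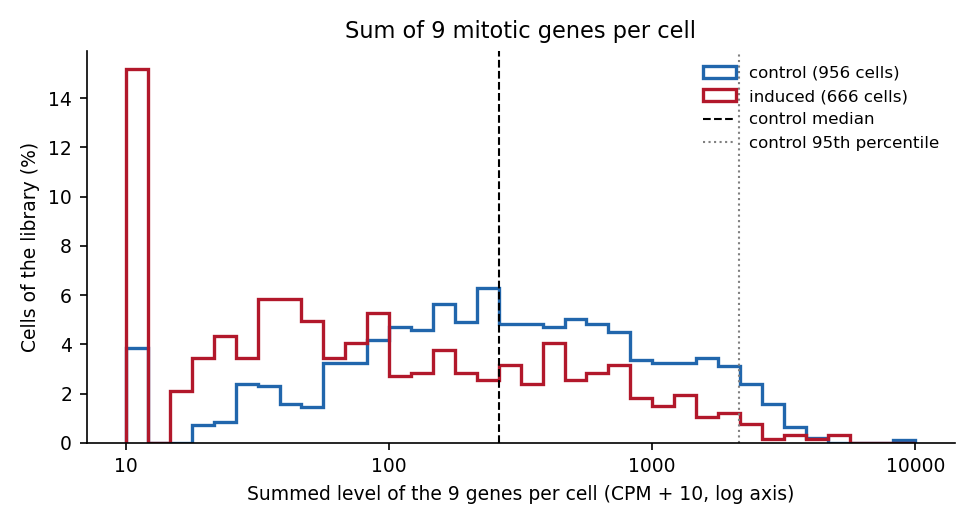
Summed level of the 9 genes in each cell (CPM + 10, log axis) against the percent of cells of the library, for 666 induced and 956 control cells, with the control median (dashed) and the control 95th percentile (dotted). The induced cells spread over the whole range, 101 of them have no count of any of the 9 genes, and 182 lie right of the dashed line.

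The sum had no gap at the threshold in either library, as the plot of the summed level shows. The induced cells nearest to it had 253, 257 and 263 CPM on the inside and 243.0, 242.7 and 240.5 CPM on the outside. Within 1.25-fold of it lay 41 induced cells, 23 inside and 18 outside, so membership is a range and not a separate class. High induced cells spanned 253 to 4922 CPM with a median of 616, and high control cells 252 to 9572 CPM with a median of 683. At the control 75th percentile (682 CPM), 12.3% of the induced cells would be kept.

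A high induced cell usually showed the whole set. The median cell had counts of all 9 genes, the lowest of 3, and 176 of 182 cells had at least 5. Other induced cells had a median of 2 of the 9, and high control cells of 9. The 182 cells held between 76.2% (AURKA) and 88.4% (ASPM) of all counts of these 9 genes in the induced library, and 81.8% of those of TOP2A, the topoisomerase that untangles chromosomes. ASPM was at 221 CPM in high induced, 11.2 in other induced, 272 in high control and 28.5 in other control cells. In the same order CENPE was at 105, 7.24, 113 and 12.9 CPM and AURKA at 91.4, 10.98, 100.2 and 14.9 CPM. TOP2A, which the rule did not use, was at 351, 30.1, 461 and 91.5 CPM. By cell, TOP2A ran from 0 over a median of 258 to 1966 CPM in high induced cells, with no count in 6, and from 0 over 5.88 to 251 CPM in other induced cells, with no count in 234. Of the marker genes of dividing cells, AURKA, CENPE and ASPM had to be high because they chose the cells, and TOP2A is the marker outside the rule.

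Phase scores from mitotic lists without the 9 genes and from a list of S phase genes placed nearly all high induced cells outside G1. Among 157 cells thinned to 49000 counts, 135 were called G2/M (86.0%, interval 79.6 to 91.0), 22 S (14.0%) and 0 G1, which allows a share of up to 2.32%. Without thinning, 157 of 182 were called G2/M, 23 S and 2 G1. High control cells were called G2/M in 77.6% and S in 22.4% of 424 thinned cells. Other induced cells were mostly called G1, 78.9% of 417, with 12.9% in S and 8.15% in G2/M. Other control cells differed from them in this: 37.3% of 386 were called G1 and 50.3% S. The 9 genes mark late stages of the cycle, so the threshold leaves most S phase cells among the other cells of each library.

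Within the induced library, high cells were above the other cells in messages of mitosis and DNA replication, and below them in part of the mesenchymal surface, matrix and antioxidant genes. Among 8919 measured genes, those reaching 10 CPM in either group, 334 (3.74%) were past 2-fold upwards in high cells and 127 (1.42%) past it downwards, on log2 ratios of summed CPM with 1 CPM added, which understates low genes. Since the 9 genes chose the cells, this contrast is a description. The balance between the directions rests on the scaling: of the genes past 2-fold, 72.5% were higher with CPM, 48.8% with TMM factors (257 higher, 270 lower) and 49.9% with DESeq2 size factors (263 higher, 264 lower). The median over all measured genes moved from 0.07 to -0.11 and -0.10 with them.

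Every measured gene of 4 mitotic lists without the 9 genes was past 1.5-fold higher in high than in other induced cells, a fold that 10.0% of all measured genes passed upwards and 6.29% downwards. These were 25 of 25 spindle motors and midzone proteins (median log2 ratio 2.61), 24 of 24 kinetochore and checkpoint genes (1.92), 31 of 31 mitotic cyclins, kinases and subunits or partners of the anaphase-promoting complex (2.38), and 22 of 22 chromosome structure genes (1.80). CCNB1, the cyclin that activates CDK1 at mitotic entry, was at 320 CPM in high and 36.2 in other induced cells. PLK1, a kinase of mitotic entry and spindle assembly, was at 202 against 22.4 CPM, and CDK1 at 167 against 29.0 CPM. KNL1, NUF2, BUB1 and BUB1B, of the outer kinetochore and the checkpoint that it carries, had log2 ratios of 3.29, 3.12, 3.12 and 3.21. MKI67, which coats mitotic chromosomes and is read as a proliferation marker, was at 246 against 23.3 CPM, and CENPF at 564 against 60.8 CPM. The lowest ratios of these lists were those of H2AFZ (0.73) and BUB3 (0.87), which are also used outside mitosis.

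Genes of DNA replication were higher too. No S phase gene entered the rule, but it left nearly all induced cells called G1 among the other cells, so this too is a description. Of 51 measured genes, 49 were past 1.5-fold higher and 0 lower, with a median log2 ratio of 1.28. RRM2, a subunit of the enzyme that makes deoxynucleotides, was at 192 CPM in high and 44.9 in other induced cells, and PCNA, the sliding clamp of the polymerases, at 133 against 51.5 CPM. The 2 genes short of the fold were not lower: the smallest ratios were those of SLBP (0.47) and UNG (0.58). Of 8 measured histone genes 5 were higher and 2 lower. HIST1H4C was at 1124 against 378 CPM, and HIST1H4H at 11.3 against 34.5 CPM, the opposite direction. Such polyadenylated histone messages are a small part of histone RNA in dividing cells, and their capture was not tested. Of the genes that act before S phase 6 of 16 were higher and 1 lower, with CDK2 at 12.4 against 4.81 CPM.

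**Figure D2:**
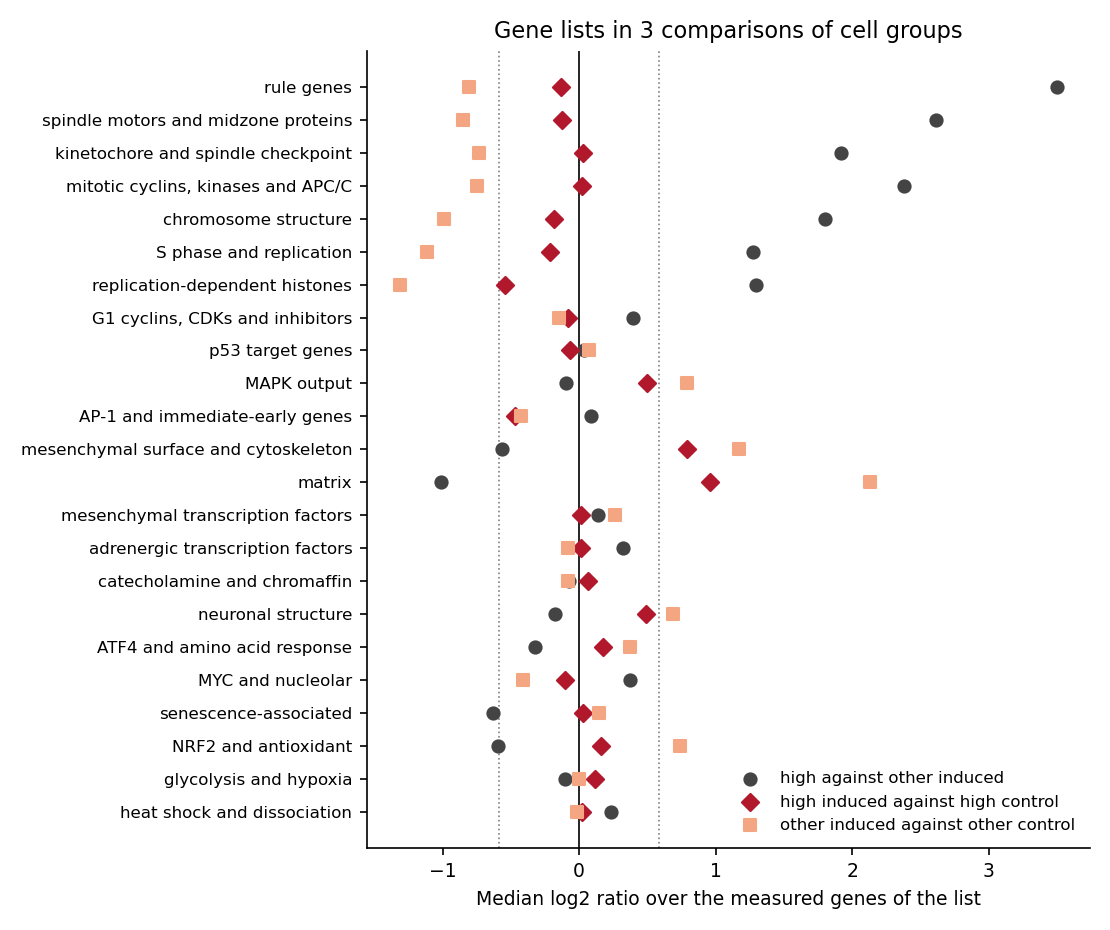
Median log2 ratio over the measured genes of each list in 3 comparisons, with dotted lines at 1.5-fold in either direction. The mitotic and S phase lists lie far right for high against other induced cells (black), near 0 for high induced against high control cells (red), and left of 0 for other induced against other control cells (orange), while the mesenchymal surface and matrix lists run the other way.

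The 12 genes lowest in high against other induced cells were of mixed kinds: ANXA1, HMOX1, ACP5, SELENOM, KDELR3, TM4SF1, TNFRSF12A, HTN1, ANKRD1, SNCG, HIST1H4H and TRIB3. ACP5, a lysosomal phosphatase, was at 6.18 CPM in high and 34.3 in other induced cells, SELENOM, a selenoprotein, at 35.0 against 146 CPM, and KDELR3, a retrieval receptor of the secretory pathway, at 9.71 against 40.5 CPM. ANXA1, a phospholipid-binding protein, was at 2.15 CPM in high and 28.3 in other induced cells, 0.173 in high control and 0 in other control cells. Its counts came from few cells: 41 of 484 other induced cells (8.47%) and 3 of 182 high induced cells (1.65%) had at least 3, and without such cells its log2 ratio shrank from -3.22 to -0.27. HMOX1, the heme-degrading enzyme induced by oxidative stress, was at 6.89 against 56.5 CPM (3.68 and 6.43 in high and other control cells). TNFRSF12A, the receptor of the cytokine TWEAK, was at 54.4 against 167 CPM, TM4SF1, a surface protein, at 12.1 against 38.9 CPM, and ANKRD1, a target gene of YAP, at 10.97 against 34.7 CPM. In high control cells these 3 genes were at 11.7, 0.404 and 0.173 CPM, below high induced cells in each case. ANKRD1 also depends on the pooling: its log2 ratio was -1.58 from summed counts and -0.58 as a mean of CPM per cell.

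Of 25 measured genes of the mesenchymal surface and cytoskeleton, 12 were past 1.5-fold lower in high than in other induced cells and 0 higher (median log2 ratio -0.56). Of all measured genes 6.29% passed this fold downwards and 10.0% upwards. Of 14 matrix genes 10 were lower and 0 higher (-1.01, and -0.25 with the threshold at the control 75th percentile). S100A10, a partner of annexin A2, was at 1186 CPM in high and 2421 in other induced cells, S100A6 at 1269 against 2695, and TIMP1, an inhibitor of matrix proteases, at 166 against 409. FN1, fibronectin, was at 43.2 against 94.0 CPM. VIM, the vimentin filament, was at 1078 against 1676 CPM, a log2 ratio of -0.64 that moved to -1.26 without cells of low mitochondrial share or low MALAT1 and to -0.22 at the control 75th percentile. Of 12 NRF2 and antioxidant genes 6 were lower and 0 higher (-0.59), and of 23 ATF4 and amino acid response genes 9 were lower and 0 higher (-0.32), with DDIT3 at 67.4 against 146 CPM. TRIB3, a pseudokinase induced by ATF4, was at 23.3 CPM in high and 64.0 in other induced cells. Of 13 senescence-associated genes 7 were lower and 4 higher (-0.63). The list holds LMNB1 (68.2 against 15.3 CPM) and HMGB2 (507 against 86.7 CPM), which follow the cell cycle, and the median turned to 0.87 with a minimum of 50 CPM. CDKN1A, the p21 inhibitor of cyclin-dependent kinases, was at 30.3 against 29.3 CPM. Genes of RAS and MAPK output gave 6 lower and 0 higher of 19 (-0.10), with FOSL1, an AP-1 factor, at 6.44 against 17.9 CPM. MYC and nucleolar genes gave 5 higher and 1 lower of 25 (0.38), and p53 target genes 3 higher and 2 lower of 13 (0.04).

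Neuroblastoma identity genes went both ways in high against other induced cells. Of 24 adrenergic transcription factors 6 were past 1.5-fold higher and 0 lower (median log2 ratio 0.32). All measured genes passed this fold in 10.0% upwards and 6.29% downwards. LMO3 was at 12.6 against 2.76 CPM in the induced groups. Of 17 catecholamine and chromaffin genes 3 were higher and 4 lower (-0.08), and DLK1 had the highest ratio of that list. Of 29 neuronal structure genes 0 were higher and 4 lower (-0.17). DLK1, a membrane protein of chromaffin cells, was at 834 CPM in high induced, 315 in other induced, 1298 in high control and 1456 in other control cells, and CHGA, the granule protein chromogranin A, at 589, 391, 947 and 1072 CPM in that order. For both, high induced cells lay between the other induced cells and the control cells. MYCN, the amplified oncogene of this line, was at 382, 402, 412 and 562 CPM.

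High induced and high control cells were close to each other in mitotic genes. None of 25 spindle, 24 kinetochore, 31 mitotic cyclin and kinase, and 22 chromosome structure genes was past 1.5-fold in either direction (medians -0.12, 0.03, 0.02 and -0.18), a fold that 5.14% of 8904 measured genes passed upwards and 1.72% downwards. Since both groups lie above the same threshold of mitotic genes, this closeness is in part set by the choice of cells. Of 52 S phase genes 0 were higher and 1 lower, a share near that of all genes. Their median log2 ratio was -0.21 (-0.05 without cells of low mitochondrial share or low MALAT1). The gene past the fold was HELLS, a chromatin remodeller, at 104 against 162 CPM. Most of the others were slightly lower: 8 of the 52 had a log2 ratio above 0, as had 3 of the 22 chromosome structure genes. Of 9 measured histone genes 2 were higher and 4 lower, with HIST1H4C at 1124 against 1715 CPM. Their median was -0.55, and -0.20 without cells of low mitochondrial share or low MALAT1. Of 17 genes that act before S phase 2 were higher and 2 lower (-0.08). By cell, 74.5% of thinned high induced cells were above the high control median in the sum of that list. The smaller share of S calls in high induced cells, given above, is not separate from the S phase values. The calls were scored from that same S phase list together with mitotic lists. The part of phase in the S phase and histone values was not tested.

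Above the same threshold, 174 of the 8904 genes (1.95%) were past 2-fold upwards in high induced against high control cells and 26 (0.292%) downwards. The 2 groups share this lower cut and were not matched above it: the 9 genes summed to 832 against 947 CPM. Without cells of low mitochondrial share or low MALAT1, which were more frequent in the induced library, the counts were 132 and 29. Library and treatment cannot be told apart in this contrast. ACTA2, smooth muscle actin, had the highest log2 ratio, 4.06, at 43.3 against 1.65 CPM (26.2-fold, interval 21.0 to 33.0). VIM was at 1078 against 116 CPM (9.30-fold, 9.04 to 9.57) and S100A10 at 1186 against 229 CPM (5.18-fold, 5.07 to 5.30). TSPAN8, a tetraspanin, was at 25.1 against 1.23 CPM. STMN4, a neuronal stathmin that binds tubulin, was at 40.6 against 3.98 CPM. PLK2, a kinase related to PLK1, was at 55.0 against 9.12 CPM. PRSS12 and PRSS23, secreted serine proteases, were at 34.8 against 4.43 and 45.2 against 6.85 CPM. ECM1, an extracellular matrix protein, was at 33.8 against 3.94 CPM.

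The genes at the other end were fewer. CARTPT, a neuropeptide precursor, was at 0.761 CPM in high induced and 43.3 in high control cells, 56.9-fold lower, and at 0.948 and 48.4 CPM in the other cells of each library. FOSB and FOS, AP-1 factors of the immediate-early response, were at 4.88 against 29.6 and 45.3 against 155 CPM. Of 13 AP-1 and immediate-early genes 5 were past 1.5-fold lower and 0 higher (median log2 ratio -0.47), BTG2 among the 12 lowest genes of this contrast at 13.6 against 39.8 CPM. LHX9 and IGDCC3 were at 13.7 against 37.8 and 8.37 against 30.2 CPM, and in these 2 genes other induced cells were lower still, at 4.74 and 5.31 CPM. FOS and FOSB, by contrast, were alike in high and other induced cells (45.3 and 40.6 CPM for FOS, 4.88 and 4.86 CPM for FOSB). Immediate-early messages move with handling of cells, which was not measured, and its part in these values was not tested. Of 12 heat shock and dissociation genes 0 were past 1.5-fold in either direction (0.02). That count is near the shares of all genes, 5.14% upwards and 1.72% downwards.

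Of the mesenchymal surface and cytoskeleton genes, 16 of 23 measured genes were past 1.5-fold higher in high induced than in high control cells and 0 lower (median log2 ratio 0.79, and 0.59 among cells without low mitochondrial share or low MALAT1). In the other cells of the 2 libraries 19 of 25 were higher and 0 lower (1.17). There 12.3% of 8960 measured genes passed the fold upwards and 9.08% downwards, against 5.14% and 1.72% for high induced against high control cells. Of matrix genes 5 of 8 were higher and 0 lower in high induced against high control cells (0.96), and 10 of 14 and 0 in the other cells (2.13). Without induced cells that had at least 3 ANXA1 counts the first median was 0.41, under 1.5-fold. Transcription factors of the mesenchymal state gave 2 of 17 higher and 0 lower (0.01), SNAI2 among them at 12.1 against 4.33 CPM, and IFI16 at 17.0 against 0.443 CPM. Genes of RAS and MAPK output were higher in 7 of 16 and lower in 1 (0.49, and 0.29 without cells of low mitochondrial share or low MALAT1). DUSP6, the phosphatase that feeds back on ERK, was at 19.7 against 3.41 CPM, close to the 21.0 CPM of the other induced cells. CCND1, the D-type cyclin downstream of ERK, was at 862 against 422 CPM, and 787 in the other induced cells. EGR1, an immediate-early target, was lower, at 90.8 against 155 CPM.

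Neuronal structure genes were also higher in high induced than in high control cells. Of 29 genes 13 were past 1.5-fold higher and 0 lower (0.49), against 15 of 29 and 0 (0.69) in the other cells. All measured genes passed the fold in 5.14% upwards and 1.72% downwards, and in the other cells in 12.3% and 9.08%. TAGLN3 was at 45.6 against 11.7 CPM and SNCG, a synuclein, at 21.0 against 3.598 CPM. Of 24 adrenergic transcription factors 2 were higher and 0 lower (0.01), near the shares of all genes, with HEY1 at 60.5 against 33.0 CPM. Of 18 catecholamine and chromaffin genes 5 were higher and 4 lower (0.07), with NPY at 846 against 292 CPM and CHGA at 589 against 947 CPM. Some lists that set the other induced cells apart were near the control in high induced cells. ATF4 and amino acid response genes gave 2 of 21 higher and 0 lower (0.17), against 10 of 23 and 0 (0.37) in the other cells, and NRF2 and antioxidant genes 1 of 11 and 0 (0.16), against 7 of 12 and 0 (0.74). The difference between these 2 contrasts was not tested. MYC and nucleolar genes gave 0 higher and 1 lower of 24 (-0.10), with CAD the lower gene at 18.6 against 29.1 CPM.

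**Figure D3:**
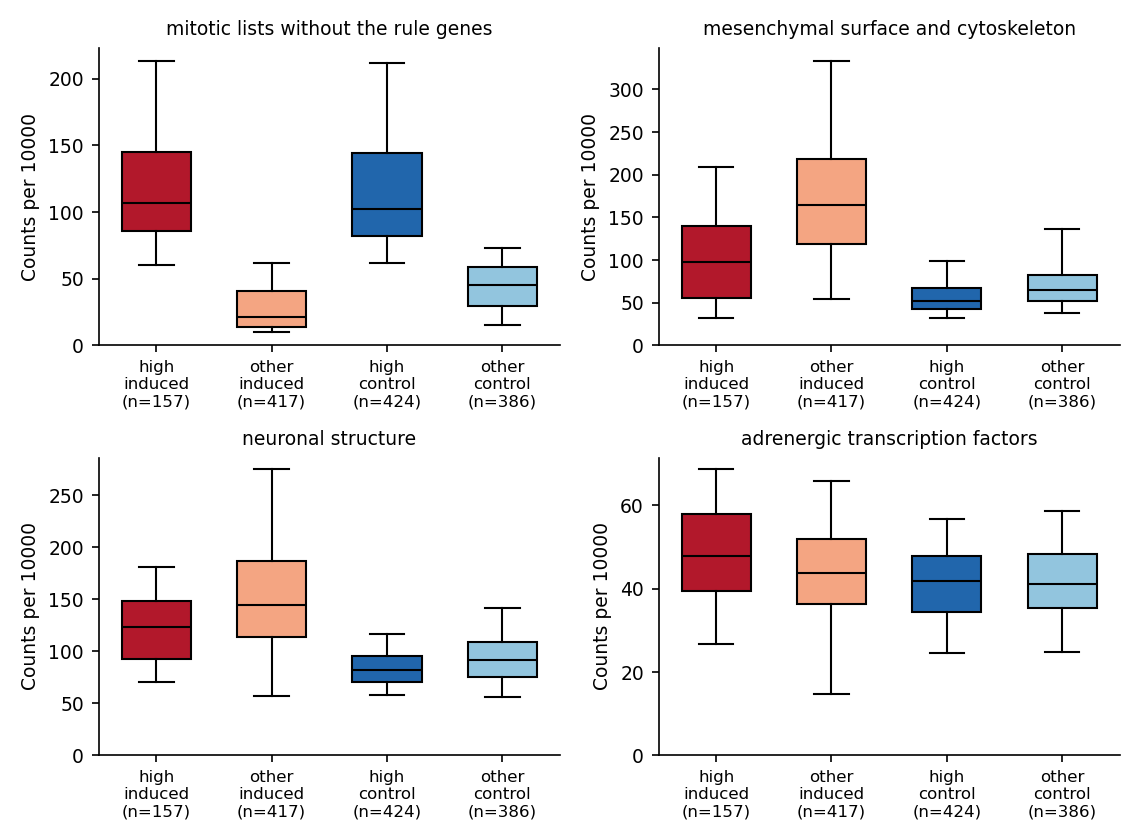
Summed counts per 10000 of 4 lists in each cell after thinning to 49000 counts, for the 4 groups (boxes: 25th to 75th percentile with the median, whiskers: 5th to 95th percentile, n cells under each). High induced and high control cells share the level of the mitotic lists without the 9 genes (medians 107 and 102), while high induced cells lie between high control and other induced cells in the mesenchymal surface list (97.8, 52.2 and 165).

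Cell by cell, the shift in high induced cells was broad for some lists and partial for others. Of 157 thinned cells, 88.5% (interval 82.5 to 93.1) were above the high control median in neuronal structure genes, 85.4% (78.8 to 90.5) in MAPK output and 77.7% (70.4 to 84.0) in the mesenchymal surface list. Without thinning the shares were 88.5%, 82.4% and 76.4%. The mesenchymal surface list ran from 22.9 over a median of 97.8 to 528 per 10000 counts in high induced cells, so its range took in both control-like and other induced-like levels. In this list 49.7% of high induced cells (41.6 to 57.8, and 91 of 182 unthinned) were above the high control 95th percentile. Adrenergic transcription factors had medians of 47.8 in high induced and 41.9 in high control cells, with 68.8% of high induced cells above the latter (64.3% unthinned). This is a sum over the list. Gene by gene 12 of 24 had a log2 ratio above 0, with a median of 0.01, so the list was not higher as a whole. VIM by itself ran from 0 over a median of 520 to 12048 CPM in high induced cells, against a median of 19.7 and a highest value of 3172 CPM in high control cells. The summed VIM level of a group is therefore carried by its upper cells.

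Mesenchymal surface genes were lower in induced cells above the threshold than in those below it, and lowest in the few cells with the highest mitotic sum. In the induced library, the mesenchymal surface list summed to 20307 CPM in the 101 cells with no count of the 9 genes and to 17569 CPM in the 383 cells from there to the threshold. Among the high induced cells it summed to 11232 CPM in 100 cells up to the control 75th percentile, 12351 CPM in 70 cells up to the 95th, and 5990 CPM in 12 cells above that. Control cells in the same ranges had 9279, 7053, 5594, 5899 and 5913 CPM. The 12 highest cells are few, and without them the step from the cells below the threshold to those above it remains. VIM in the same ranges of induced cells was at 1889, 1642, 866, 1460 and 228 CPM, not in steady order above the threshold. DLK1 ran the other way, at 146, 342, 740, 845 and 1691 CPM, while control cells went from 2033 to 1392 CPM. Neuronal structure genes stayed above the control in each range, with 12851, 12528 and 12147 CPM above the threshold against 8146, 8651 and 9088 CPM. HRAS lay between 150 and 165 CPM in the first 4 ranges and at 93.4 CPM in the 12 highest cells. Control cells in the same ranges had 77.0, 103, 125, 108 and 98.5 CPM of HRAS. The ranges are of the value that chose the cells, so these courses are descriptions.

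**Figure D4:**
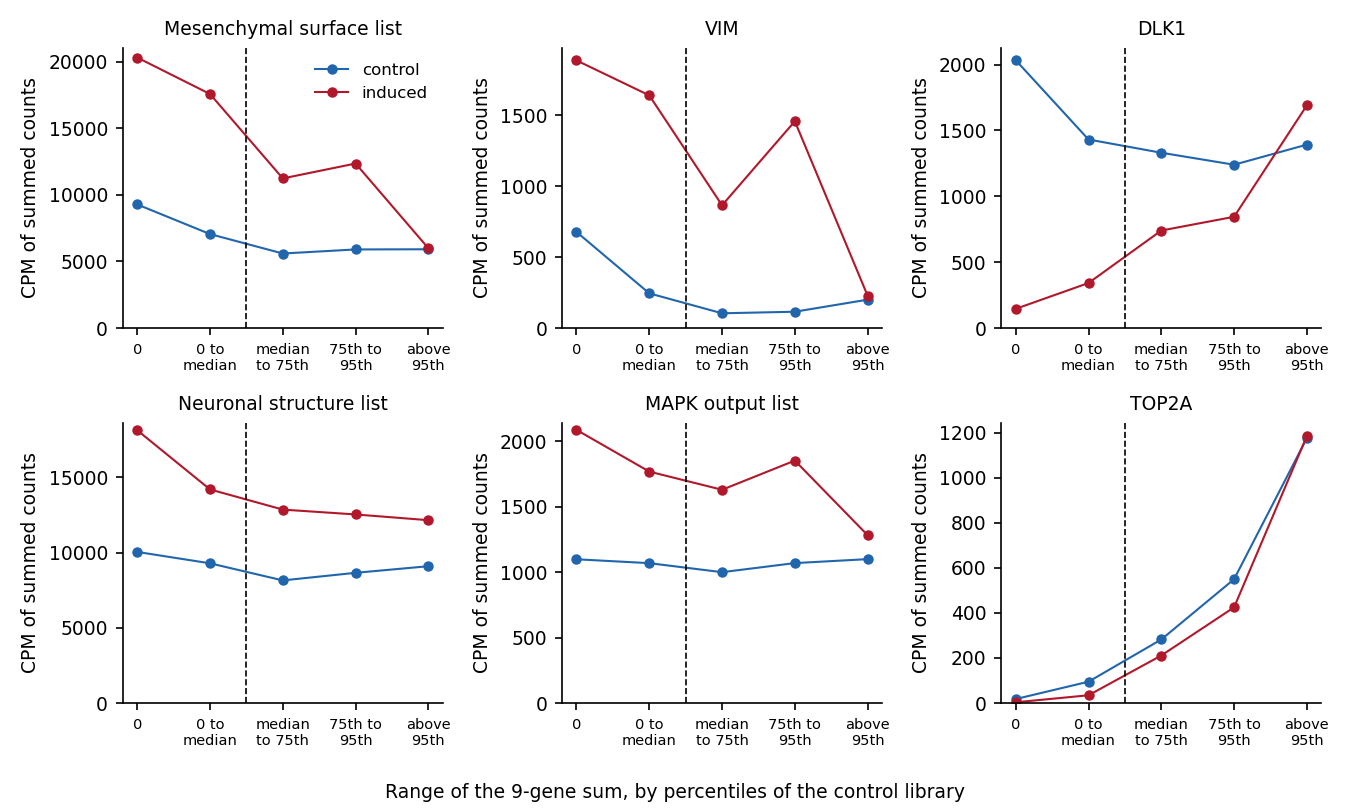
Summed CPM of 3 lists and 3 genes in cells grouped by ranges of the 9-gene sum, set by percentiles of the control library, for induced (red) and control (blue) cells, with the threshold dashed. In induced cells the mesenchymal surface list is lower (20307 to 5990 CPM) and DLK1 higher (146 to 1691 CPM) at the upper than at the lower end of the sum, and the last range holds 12 cells.

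The mesenchymal surface list was also compared within a phase. In unthinned cells called G2/M, the mesenchymal surface list summed to 11763 CPM in 157 high induced cells, 5786 CPM in 385 high control cells and 17829 CPM in 53 other induced cells. In cells called S it summed to 8485 CPM in 23 high induced, 5522 CPM in 93 high control and 10340 CPM in 57 other induced cells. In this list both phases had the order of high control, high induced and other induced cells. VIM was at 1131 CPM in G2/M and 636 CPM in S among high induced cells, against 116 and 117 CPM in high control cells. In other induced cells VIM was at 1215 CPM in G2/M and 854 CPM in S, so within G2/M the 2 induced groups were closer in VIM than over all cells. S100A10 was at 1247 CPM in high and 2497 CPM in other induced cells called G2/M. In S100A10 and in the list the 2 groups were about as far apart in G2/M as over all cells. In cells called S they were closer in both, with S100A10 at 695 CPM in high and 920 CPM in other induced cells.

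The spread of the mesenchymal list within the high induced cells was used to divide them, after its values had been seen. At the high control 95th percentile, 100.5 per 10000 counts, 91 cells lay at or below and 91 above, 18 and 21 of them within 1.25-fold of it. The VIM and S100A10 levels follow from this choice: 172 and 1832 CPM for VIM, 333 and 1895 CPM for S100A10. The mitotic sum was alike, with medians of 610 and 619 CPM. The other values differ in depth and quality too: the median count was 101972 and 136404, the mitochondrial share 11.6% and 8.27%, and MALAT1 3553 and 1608 CPM, and their part in what follows was not tested.

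High induced cells at or below that level resembled high control cells in some genes and not in others. HRAS was at 116 CPM (interval 110 to 123) in them, 190 (182 to 198) in the cells above and 116 (113 to 119) in high control cells. DLK1 was at 1416, 349 and 1298 CPM and CHGA at 942, 296 and 947 CPM in the same order. Histone genes summed to 2079, 755 and 2029 CPM and S phase genes to 4982, 3345 and 4704 CPM. In all of these the lower cells lay near high control cells. CARTPT, however, was at 0.493 CPM (0.160 to 1.15) in the lower and 0.984 CPM (0.508 to 1.72) in the upper cells, against 43.3 CPM (41.5 to 45.1) in high control cells. STMN4 was at 40.4, 40.8 and 3.98 CPM, and SCG5, a secretory chaperone, at 37.8, 43.9 and 13.7 CPM. FOS was at 64.1, 29.7 and 155 CPM and FOSB at 7.49, 2.71 and 29.6 CPM. For CARTPT and STMN4 both parts of the high induced cells thus stood about equally far from the control library, whatever their mesenchymal level. DUSP6, at 10.7, 27.1 and 3.41 CPM, and neuronal structure genes, at 11397, 13746 and 8425 CPM, were above the control in both. TSPAN8 (3.35, 43.2 and 1.23 CPM), PLK2 (16.2, 87.3 and 9.12 CPM) and VIP, a neuropeptide (98.5, 424 and 65.8 CPM), were high mainly in the upper cells. All these cells were chosen for mitotic message. The mitotic cyclin and kinase list summed to 5983, 6961 and 6109 CPM, chromosome structure genes to 7636, 6049 and 7584 CPM and the 9 genes to 890, 784 and 947 CPM, and TOP2A was at 394, 316 and 461 CPM. The upper cells were thus below high control cells in TOP2A and chromosome structure genes and above them in the cyclin and kinase list. Whether the lower cells had been induced to the same extent was not tested.

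**Figure D5:**
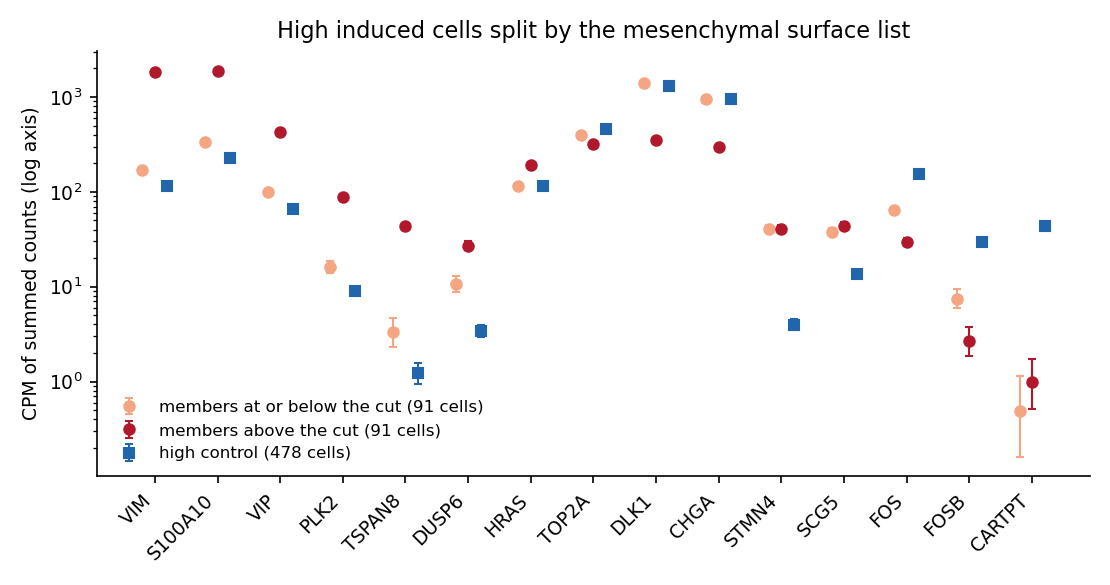
Summed CPM (log axis) of 15 genes in high induced cells at or below and above the high control 95th percentile of the mesenchymal surface list (91 cells each) and in 478 high control cells, with 95% Poisson intervals. DLK1, CHGA and HRAS of the lower cells lie near high control cells, while CARTPT, STMN4, FOS and FOSB of both parts lie away from them.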

How the data were processed

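The deposited table of counts (36027 genes, 1622 cells) holds whole numbers, and its column sums differ from the totals in the deposited annotation by at most 192 counts. Per the submitters' processing notes, kallisto and bustools were used. Their versions and roles, the genome build and the cell filters are unknown: not given in the sources used here. Per cell, its library, singlet mark and percent of mitochondrial counts (at most 20.0) are the authors', per the file headers. A per-cell size factor, a ratio deposited by the authors, was not used.

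Sums of counts over a group's cells were scaled to CPM with a pseudocount of 1 CPM. Genes at 10 CPM in either group were measured, genes were called at 2-fold and lists at 1.5-fold. Sums have exact Poisson, ratios exact conditional and shares Clopper-Pearson intervals at 95%. Cells are not replicates, so no p-value was computed. Values per cell come from cells thinned to 49000 counts, leaving out 25 high induced, 67 other induced, 54 high control and 92 other control cells. scanpy 1.11.5 scored the phases. TMM factors (edgeR 4.0.16) and DESeq2 1.42.0 size factors served as other scalings only. Counts were simulated for high against other induced cells (8466 genes, Poisson error only). In them 100 of 100 genes raised and 100 of 100 lowered 3-fold were called, and 0 of 8266 unchanged genes. At this depth and without differences between cells or libraries such an outcome was nearly fixed in advance. It checks the calculation and does not measure false calls in the data.

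The members, the lists and the tests were chosen with earlier results of these data known. Named genes are the 9 genes, TOP2A, HRAS, NRAS, the 12 highest and 12 lowest log2 ratios among genes at 25 CPM for both contrasts of high induced cells, and the 2 highest and 2 lowest members of each list, and some genes that this rule names are left out of the text. CDK1, CDKN1A, CHGA, FN1, MALAT1, MKI67, MYCN, PCNA, S100A6, VIP and the division by the mesenchymal list were chosen after their values were seen. So were CDH5 and VWF of the endothelial list. Alternatives changed the score, the threshold, the cells, the scaling, the pseudocount and the minimum. Leaving out a replicate and blocking were not possible with 1 library per condition.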

Additional observations from a re-analysis of the deposited data

How the results depend on the processing

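Over 29 settings, 5 list medians were past 1.5-fold throughout for high against other induced cells (the 4 mitotic lists and the S phase list), and 1, that of the mesenchymal surface list, for high induced against high control cells. Of the 35 named genes past 2-fold in the first contrast 32 stayed past it in every setting, and of 22 in the second 19 did. Nearly all of these genes were named for extreme log2 ratios in the same data or, in the first contrast, had chosen the cells. Genes picked in this way tend to stay past 2-fold, so the counts do not measure how stable genes are in general. Several settings also differed only by leaving a single gene out of the score. Kept cells were 12.3% of the induced library at the control 75th percentile. Genes 2-fold higher in high than in other induced cells numbered 144 with a minimum of 50 CPM, in place of 334. Genes 2-fold lower, 127 in the text, numbered 217 with cells at or above the control 5th percentile of mitochondrial share and MALAT1, 270 with TMM, 264 with DESeq2 size factors, 66 with a pseudocount of 5 CPM, 35 with a minimum of 50 CPM, 284 with no minimum, and 218 for high cells called G2/M against other cells called G1, a setting added after the data were seen. For high induced against high control cells, the higher genes numbered 58 with a minimum of 50 CPM and 339 with none, in place of 174. The 26 lower genes became 15 with DESeq2 size factors, 42 with totals without ribosomal protein and mitochondrial genes, 11 with a pseudocount of 5 CPM, 4 with a minimum of 50 CPM and 62 with none. Filters and pseudocounts change which genes can pass, and the cause of the other shifts was not tested. Among list medians past 1.5-fold in the main comparison, those that changed sign were of the senescence-associated list for high against other induced cells (0.87 with a minimum of 50 CPM) and of histones for other induced against other control cells (0.40 with G2/M and G1 cells, -1.31 in the main comparison). Medians under 1.5-fold changed sign in some setting for 3, 11 and 8 of the 22 lists in the contrasts of high against other induced, high induced against high control, and other induced against other control cells. No paired analysis was possible because each condition has 1 library. Genes under 10 CPM in both groups of a contrast were left out by the chosen minimum and not by depth alone. In high induced cells 3 counts are 0.134 CPM.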
